A study of Mus musculus with 12 samples.

Results

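The genes described here encode S100 calcium-binding proteins. They are S100a8, S100a9, S100a1, S100a4, S100a6, S100a10, S100a11, S100a13 and S100b, and they were taken as every probe that the platform annotation assigns to one of these 9 symbols. Each of the 9 genes had 1 probe, so the set holds 9 of the 17658 genes that a probe names, and 9 of the 46133 probes on the array. S100a8 and S100a9 were chosen by their diet difference, a higher signal on the high-iron diet in these same arrays, and their diet values are therefore given as a description without a test. The other 7 genes entered as members of the same family.

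S100 proteins are small calcium sensors with EF-hand motifs that mostly work as dimers, and calcium binding exposes a surface through which they bind target proteins. S100A8 and S100A9 together form calprotectin, an abundant cytosolic complex of neutrophils and monocytes that sequesters metal ions and, once released, signals through receptors such as TLR4. The other members act mainly inside the cell: S100A1 is the S100 protein best known from heart muscle, where it binds the ryanodine receptor and the calcium pump of the sarcoplasmic reticulum, and S100B is best known from glia and Schwann cells.

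RNA was measured in 4 groups of 3 arrays each: heart of mice on the high-iron diet, heart of mice on the control diet, skeletal muscle (extensor digitorum longus) of mice on the high-iron diet, and skeletal muscle of mice on the control diet. All mice were C57BL/6 males aged 18 weeks. The control chow held 0.02% iron, the high-iron chow was the same with 2% carbonyl iron, and the diets ran for 6 weeks. The labels number the biological replicates from 1 to 3 in each group, and each array holds the RNA of 1 mouse in 1 tissue. Values are normalized signals, that is, scanner intensities after quantile normalization of the 12 arrays, on which the median probe of every array lies near 257. Levels are compared between samples for 1 probe and never between probes.

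The label of each tissue fitted its marker genes: 7 of 7 measured heart muscle genes were higher and 7 of 7 measured skeletal muscle genes lower in heart than in skeletal muscle (limma, adjusted p under 0.05). A pair of heart arrays stood apart. High-iron heart replicate 1 and control heart replicate 2 had median correlations of 0.930 and 0.936 with the other heart arrays, against 0.983 to 0.986 for the remaining 10 arrays within their tissue. The study mentions hybridization problems on a heart array of each diet without saying which, left the failed probes of those arrays out, and gives S100a8 and S100a9 in heart from fewer arrays than the full groups. All 6 heart arrays are used here, since the failed arrays are not named. The heart values of S100a8 and S100a9 given here therefore include readings that the study left out. High-iron heart replicate 1 also carried signals of 20034 for Myl7 and 32988 for Myl4, which encode atrial myosin light chains, where the highest of the other heart arrays, control heart replicate 1, had 1268 and 2693. Values without the pair are given beside the results whose call they change, and for S100a8 and S100a9. Signals of blood and atrial genes in these bulk samples are given beside the results they move with, and in bulk tissue fewer cells of a type and less RNA per cell cannot be told apart.

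In the mouse genome 8 of the 9 genes lie on chromosome 3 and S100b on chromosome 10. In the RefSeq order S100a1 and S100a13 are direct neighbours, as are S100a8 and S100a9, and S100a11 and S100a10, while S100a5 lies between S100a4 and S100a6. Promoter windows from RefSeq (GRCm38.p6), reaching 250 bases before and 50 bases into each annotated transcript, were matched for 8 of the 9 genes, S100a10 being named only. They were searched on both strands for 5 motifs: the TATA box TATAAA, the AP-1 motif TGANTCA, the C/EBP motif TTNNGNAA, the NF-kB motif (GGG and TTCC with 3 bases between) and the PU.1 motif GAGGAA, in which N is any base. The C/EBP motif was found in the windows of S100a8 and S100a9 and in no other member's, and in 40.7% of all 32851 windows. TATAAA was found in S100a8, S100a9 and S100a4, and in 13.6% of all windows. The PU.1 motif was found in S100a8, S100a4 and S100a11 (28.3% of all windows), the AP-1 motif in S100a11 alone (7.81%), and the NF-kB motif in none of the 8 (5.56%). The motifs do not overlap one another in these windows. A match describes the letters only. The upstream stretches of the calprotectin genes are shown because these are the 2 genes whose signal was higher on the high-iron diet, and the stretch between S100a1 and S100a13 because these neighbours start in opposite directions from it and both had higher signals in heart. Capitals mark the motif matches (TATA box, C/EBP and PU.1), and each line runs 5′ to 3′ on the strand given. S100a8 is the plus strand of chr3:90668821-90669070, S100a9 the minus strand of chr3:90695722-90695971, and the stretch between the starts of S100a1 (minus strand) and S100a13 (plus strand) the plus strand of chr3:90514331-90514434, which held none of the motifs.
S100a8: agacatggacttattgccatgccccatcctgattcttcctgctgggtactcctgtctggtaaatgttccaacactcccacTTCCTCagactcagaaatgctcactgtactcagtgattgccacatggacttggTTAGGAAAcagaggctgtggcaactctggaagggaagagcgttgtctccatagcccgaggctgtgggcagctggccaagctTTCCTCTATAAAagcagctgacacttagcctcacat
S100a9: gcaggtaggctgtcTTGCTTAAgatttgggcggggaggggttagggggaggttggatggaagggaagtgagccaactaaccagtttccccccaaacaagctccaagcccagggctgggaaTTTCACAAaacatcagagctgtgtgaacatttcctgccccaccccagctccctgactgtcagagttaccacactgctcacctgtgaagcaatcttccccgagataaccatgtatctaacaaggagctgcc
S100a1 and S100a13: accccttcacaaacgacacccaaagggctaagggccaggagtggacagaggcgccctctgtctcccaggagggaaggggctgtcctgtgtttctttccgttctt
In S100a8 the TATA box covers bases -30 to -25 from the annotated start and directly follows a PU.1 match at -36 to -31. In S100a9 the TATAAA match begins at base 1 of the annotated transcript, not upstream of it, and so lies outside the printed stretch.

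The calprotectin genes were compared first between the diets. In skeletal muscle S100a8 had normalized signals of 682, 819.2 and 378 in high-iron mice, against 273, 271 and 243 in control mice. All 3 control arrays lay near the median of all probes, where signal and background cannot be separated, and each high-iron array lay above them. The size of the ratio therefore depends on how background is treated. The mean was 626 ± 226 on the high-iron diet and 262 ± 17.0 on the control diet (SD, n = 3 each), a ratio of 2.39. On the log2 scale the difference was 1.18 (SE 0.16). Each SE given is that of limma, in which a probe's variance is drawn toward that of all probes. For S100a8 and S100a9, in both tissues, it is smaller than the spread of their own arrays alone would give. S100a9, which encodes the partner subunit, had 596, 657 and 404 in high-iron mice, against 287, 273 and 286 in control mice. Again the diets did not overlap and replicate 3 was the lowest of the high-iron arrays. The S100a9 control arrays lay somewhat above the median of all probes, with a median of 69.6% of probes below them. Their signals are still low enough that the ratio depends on background. Its means were 552 ± 132 and 282 ± 7.65 on the high-iron and control diets (SD, n = 3 each), a ratio of 1.96 and a log2 difference of 0.94 (SE 0.12).

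In heart S100a8 had 763, 1129 and 598 in high-iron mice, against 653, 258 and 269 in control mice. The diets overlapped, because control heart replicate 1 stood above high-iron replicate 3, while the other control hearts lay near the median of all probes. The mean was 829.8 ± 272 on the high-iron diet and 393 ± 225 on the control diet (SD, n = 3 each), a ratio of 2.11 and a log2 difference of 1.17 (SE 0.33). S100a9 had 599.8, 937 and 532 in high-iron mice, against 519, 304 and 277 in control mice, so that its diets did not overlap, by a narrow margin. Its means were 689.5 ± 217 and 367 ± 133 on the high-iron and control diets (SD, n = 3 each), a ratio of 1.88 and a log2 difference of 0.92 (SE 0.25). Control heart replicates 2 and 3 had 304 and 277, against a median of all probes near 257 and an upper quartile near 300. The heart ratios of both genes therefore also depend on how background is treated. Over the whole array, the 3 high-iron arrays lay clear of the 3 control arrays for 10.2% of skeletal muscle probes and 7.79% of heart probes. With normexp background correction the S100a8 difference in skeletal muscle was 1.82, and that of S100a9 was 1.44 in skeletal muscle and 1.33 in heart. The S100a8 difference in heart reached at most 1.69 in any alternative run. Without the pair of heart arrays that stood apart the differences in heart were 0.97 for S100a8 and 0.90 for S100a9, from 2 arrays per diet. The study also gives these genes from fewer heart arrays, but whether it left out this pair is not stated. The fold changes in heart minus those in skeletal muscle were -0.02 for S100a8 (95% interval -0.95 to 0.92) and -0.02 for S100a9 (95% interval -0.69 to 0.66), intervals wide enough to hold a difference of either sign. The fold changes of both tissues served to choose the genes, so this difference too is a description without a test.

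**Figure D1:**
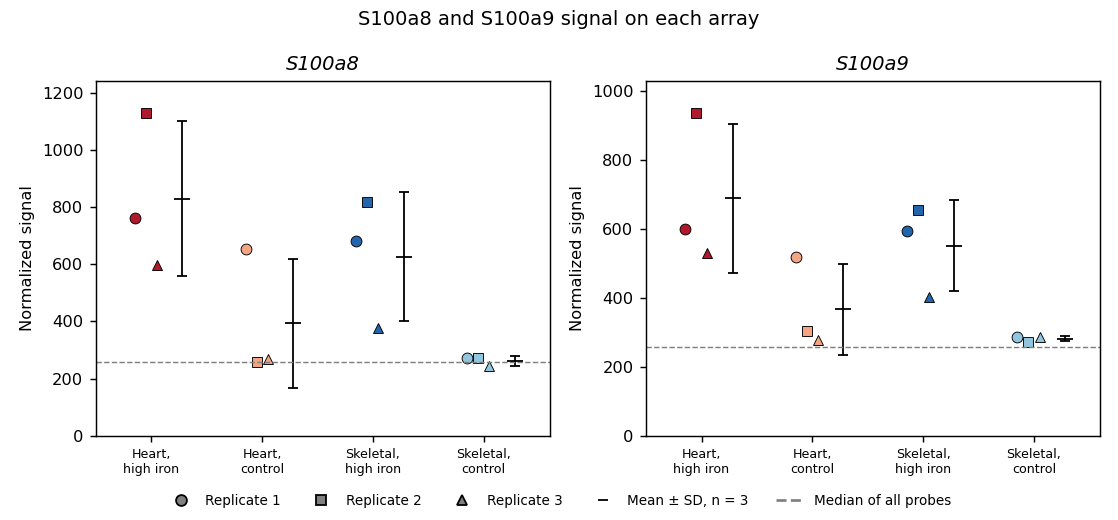
Normalized signal (vertical axis, linear) of S100a8 and S100a9 on each array by group, with the mean and SD of 3 arrays beside the points and the median of all probes as a dashed line. High-iron arrays lie above the control arrays of their tissue except that control heart replicate 1, at 653 for S100a8, lies above high-iron heart replicate 3, at 598.

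Control heart replicate 1 was high for both calprotectin genes, and it was also the highest heart array for blood genes. Ppbp, a platelet chemokine, had 1283 on it and 352 to 430.2 on the other 5 heart arrays, Gp5, a platelet glycoprotein, 450.2 against 238 to 287, and Alas2, the erythroid enzyme of haem synthesis, 2789 against 939 to 1850. The summed signal of 9 platelet and erythroid genes was 68196 to 119144 in high-iron hearts and 89590 to 140079 in control hearts, the last on that array. Without control heart replicate 1 the log2 fold change was 1.61 for S100a8 and 1.20 for S100a9 in heart. The part of blood in these signals was not tested.

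Beyond their diet difference the calprotectin genes moved together from array to array. In high-iron skeletal muscle and in high-iron heart alike the order of the arrays was replicate 2, 1, 3 for both genes, and in control heart replicate 1 was highest for both. Replicates 2 and 3 stood in opposite order for the 2 genes in control heart and in control skeletal muscle. Replicate 3 also had the lowest array median before normalization in each group. Over the 12 arrays, after each group's mean was subtracted, Pearson's r between the 2 genes was 0.97 and Spearman's rho 0.95, and r was 0.95 over the 10 arrays left without control heart replicate 1 and high-iron skeletal muscle replicate 3. Both genes were read from the same arrays, so these values are a description.

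Genes of neutrophils, the main source of calprotectin in blood, were counted beside them. Of 23 listed genes 20 were measured, and 0 passed the test in skeletal muscle or heart (limma, adjusted p under 0.05), with 0 at an unadjusted p under 0.05 in either tissue, against 0.0997% of all probes called in skeletal muscle and 0% in heart, and 5.12% and 2.56% at the unadjusted threshold. Their median log2 fold change was 0.01 in skeletal muscle and 0.04 in heart, beside medians near 0 over all probes. No neutrophil gene exceeded 3 times the median of all probes in any group. The summed signal of the 20 genes was 4973 to 5301 in high-iron and 5054 to 5274 in control skeletal muscle, and 5138 to 5340 in high-iron and 5061 to 5318 in control heart. Camp, the cathelicidin of neutrophil granules, had log2 fold changes of -0.01 in skeletal muscle and 0.04 in heart, and Mpo, myeloperoxidase, of -0.05 and 0.04. Ltf, lactoferrin, had 0.15 in skeletal muscle (adjusted p = 0.970, limma), and Ngp, a granule protein, -0.18 in heart (adjusted p = 1.00, limma). The part of neutrophils in the S100a8 and S100a9 signals was not tested, and 7 to 10 of the 20 genes in each group lay below the median of all probes, where a low level and no level look alike.

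The other cells that can express these 2 genes were counted in the same way. Over all probes 0.0997% were called by diet in skeletal muscle and 0% in heart. Of 13 monocyte and macrophage genes 11 were measured and 0 passed in either tissue by diet, the summed signal being 3900.0 to 4979 in high-iron and 4275 to 4877 in control skeletal muscle, and 5787 to 6905 in high-iron and 5945 to 6324 in control heart. All 10 keratinocyte genes were measured and 0 passed, with sums of 2668 to 2723 in high-iron and 2575 to 2650 in control skeletal muscle, and 2613 to 2678 in high-iron and 2522 to 2746 in control heart.

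Genes of S100 receptors and their signalling, among them the adaptor Myd88, passed the diet test in neither tissue. The counts were 0 of 7 in skeletal muscle and 0 of 7 in heart, with median log2 fold changes of -0.03 and 0.02. Ly96, the TLR4 co-receptor, had 0.18 in skeletal muscle (adjusted p = 0.905, limma), and Tlr4 itself -0.09 in skeletal muscle and -0.04 in heart. Of 18 listed regulators of S100a8 and S100a9 transcription, 17 were measured. In skeletal muscle 2 of them were lower on the high-iron diet, both subunits of the AP-1 factor, and 0 were higher, against 0.0997% of all probes called in either direction, while 0 of 17 passed in heart. Fos had 509, 499 and 693 in high-iron mice, against 1612, 1188 and 774 in control mice, a log2 difference of -1.03 (SE 0.16, adjusted p = 0.0045, limma). Jun had 451, 435.3 and 533 in high-iron mice, against 704, 628 and 589.6 in control mice, a log2 difference of -0.44 (SE 0.085, adjusted p = 0.0428, limma). Neither gene's diets overlapped in skeletal muscle. In heart Fos went the other way, with 0.62 (SE 0.27), and Jun had -0.21, neither passing. Of the other AP-1 genes listed, Fosb had 0.22 in skeletal muscle and -0.72 in heart. Junb had -0.22 and 0.15, and Jund -0.06 and 0.05, none of them passing. Cebpb, a C/EBP factor, had -0.26 in skeletal muscle and -0.28 in heart without passing, and Spi1, which encodes PU.1, 0.03 and -0.05. Both calls were lost with median scaling, normexp correction and 1 fit over 4 groups (adjusted p 0.910 to 1.00, limma), that of Fos also with a trended robust prior (adjusted p = 0.939) and without high-iron replicate 1 (-0.96, adjusted p = 0.143, both limma). That of Jun was also lost with the authors' normalized table (adjusted p = 0.129), with dim probes left out (adjusted p = 0.0778) and without control replicates 1 or 2 or high-iron replicates 1 or 2 (-0.45 to -0.37, adjusted p 0.164 to 0.368, all limma).

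**Figure D2:**
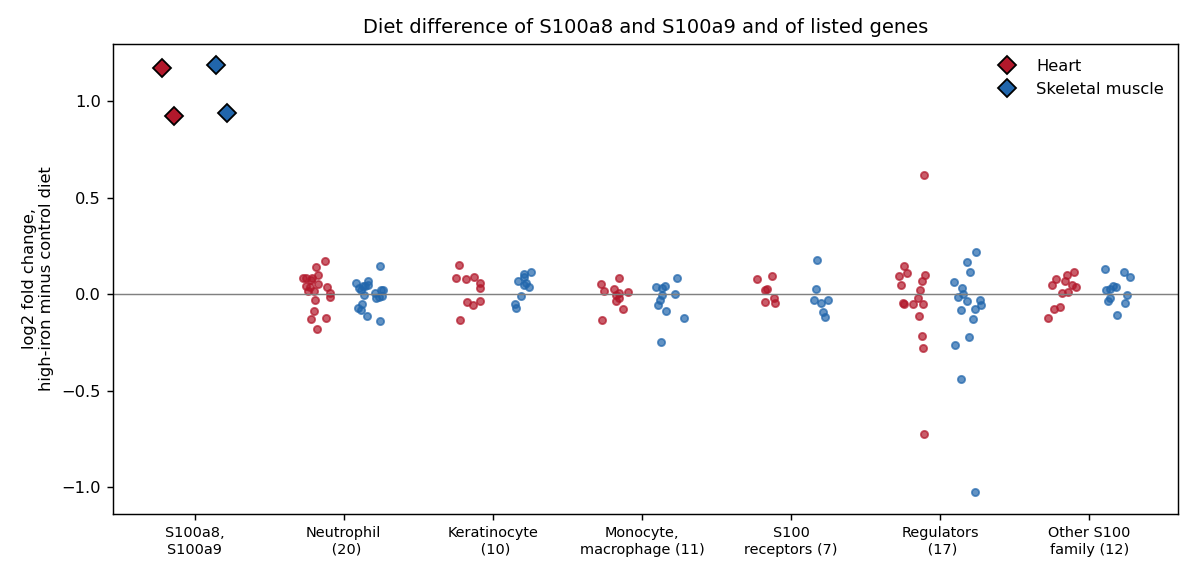
log2 fold change by diet (high-iron minus control, vertical axis) of S100a8 and S100a9 (diamonds) and of the genes of 6 lists (points, 1 probe per gene) in heart and in skeletal muscle. S100a8 and S100a9 lie between 0.92 and 1.18, while the neutrophil genes lie between -0.18 and 0.17.

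Across the array, the probes whose signal followed S100a8 and S100a9 most closely were ranked by Pearson's r with the mean log2 signal of the pair over 12 arrays, after each tissue's mean was subtracted, among 375 probes that varied enough (SD of at least 0.25). The 5 highest were Pdk4, a kinase that inhibits pyruvate dehydrogenase (r = 0.87), Angptl4, an inhibitor of lipoprotein lipase (0.83), Txnip, the thioredoxin-binding protein (0.81), Cyp26b1, which breaks down retinoic acid (0.80), and Cited2, a transcriptional coregulator (0.73). BC048679, Galnt15, Fnip1, Dsg2 and 2310002L09Rik followed with r of 0.55 to 0.66. Pdk4 had r of 0.95 within the 6 hearts and 0.78 within the 6 skeletal muscles, and Angptl4 0.91 in both. The arrays share the diets, so these correlations include any diet difference, and they are given as a description.

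The remaining 7 members were then compared between the diets, a contrast that did not serve to choose them. None passed the test, 0 of 7 in skeletal muscle and 0 of 7 in heart (limma, adjusted p under 0.05), 0 had an unadjusted p under 0.05, and the arrays of the diets overlapped for every one of the 7 in both tissues. Over all probes 0.0997% were called in skeletal muscle and 0% in heart, 5.12% and 2.56% had an unadjusted p under 0.05, and the diets lay clear of each other for 10.2% and 7.79%. Their log2 fold changes were -0.15 to 0.05 in skeletal muscle (standard errors 0.07 to 0.11) and -0.22 to 0.08 in heart (standard errors 0.083 to 0.16). The value farthest from 0 was in both tissues that of S100a10, which lost its calcium binding in evolution and pairs with annexin A2. In heart it had 1443, 1085 and 1021 in high-iron mice, against 1339, 1386 and 1370.3 in control mice, a log2 fold change of -0.22 (95% interval -0.49 to 0.04). High-iron replicate 1, one of the pair of arrays that stood apart, lay above all controls and the other 2 high-iron hearts below them. In skeletal muscle S100a10 had 884, 1152 and 967 in high-iron mice, against 1079, 1093 and 1149 in control mice, a log2 fold change of -0.15 (95% interval -0.33 to 0.02). Without the pair of heart arrays its heart value was -0.36 (adjusted p = 0.295, limma).

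For each of the other 6 members the diet difference was smaller than its SE, in heart as in skeletal muscle. S100a1 averaged 11913 ± 1344 in high-iron and 11664 ± 1898 in control heart, and 2654 ± 243 in high-iron and 2789 ± 133 in control skeletal muscle (SD, n = 3 each). S100a4 averaged 377 ± 8.36 in high-iron and 372 ± 34.5 in control heart, and 593 ± 96.6 in high-iron and 573 ± 97.2 in control skeletal muscle. The intervals of these 7 genes reached at most from -0.49 to 0.41 on the log2 scale in heart and from -0.33 to 0.28 in skeletal muscle, and 3 arrays per group set this precision. Of the further 15 S100 and related family genes listed, 12 were measured and 0 passed by diet in either tissue. Over all probes 0.0997% were called in skeletal muscle and 0% in heart. S100a5 had a log2 fold change of 0.13 in skeletal muscle and -0.08 in heart, and S100a7a, the gene next to S100a8, 0.04 and 0.10. The diet difference did not pass a test of its own change between the tissues for any of the 7 members (limma, adjusted p = 1.00 for each, against 0% of all probes called).

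**Figure D3:**
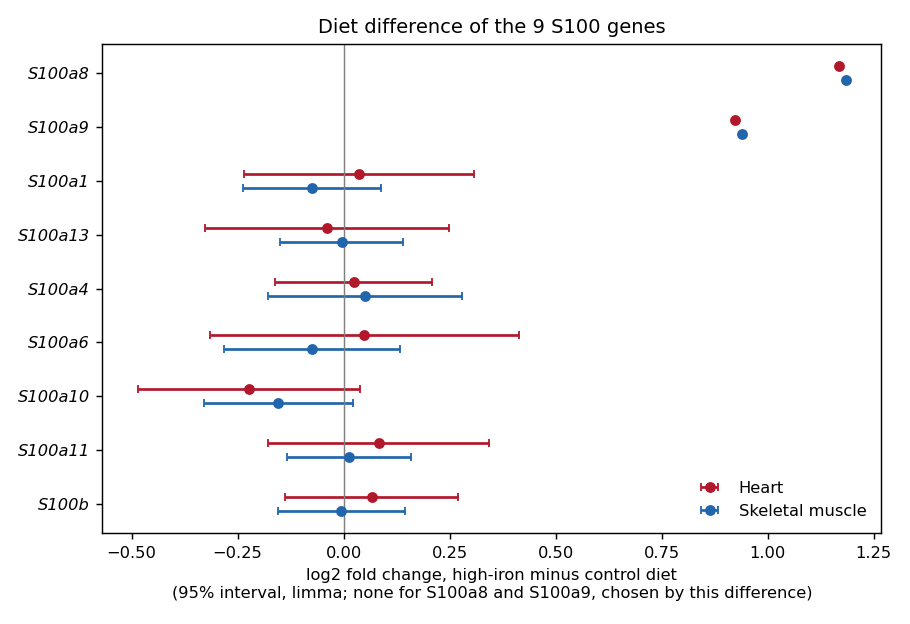
log2 fold change (high-iron minus control diet, horizontal axis) of each of the 9 genes in heart and in skeletal muscle, with the 95% interval from limma for the 7 genes not chosen by it. S100a8 and S100a9, drawn as points alone, lie at 0.92 to 1.18, and the other 7 genes between -0.22 and 0.08 with intervals that include 0.

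The 9 genes were next compared between the tissues, a contrast that played no part in choosing them. With both diets pooled, 6 of the 9 passed the test, 4 higher and 2 lower in heart, against 12.8% of all probes called (7.3% higher and 5.5% lower). Among probes brighter than the median, as all members but S100b were, 25.2% were called. S100a1 differed the most. It had 13146, 10480 and 12113 in high-iron heart and 10480, 13853 and 10659 in control heart, against 2849, 2730.3 and 2382 in high-iron skeletal muscle and 2742, 2686 and 2938 in control skeletal muscle. Every heart array was more than 3 times every skeletal muscle array. Its mean was 11788 ± 1477 in heart and 2721 ± 190 in skeletal muscle (SD, n = 6 each), a ratio of 4.33 and a log2 difference of 2.11 (SE 0.077, adjusted p = 1.63e-12, limma). The difference was 2.16 within the high-iron diet (adjusted p = 2.43e-10) and 2.05 within the control diet (adjusted p = 5.09e-10, both limma). Within the high-iron diet 3 of the 9 genes passed, against 8.95% of all probes, and within the control diet 4 of the 9, against 8.87%. Among probes brighter than the median the share was 17.9% within either diet. Over both diets the tissues did not overlap for 3 of the 9 genes, S100a1, S100a13 and S100a4, against 9.58% of all probes.

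S100a13, the neighbour of S100a1 and a protein of the complex that releases FGF1 from cells, was also higher in heart. It had 933, 709.5 and 724 in high-iron heart and 740.2, 952 and 738.5 in control heart, against 553, 578 and 542 in high-iron and 563, 559 and 554 in control skeletal muscle. No heart array overlapped with a skeletal muscle array. The mean was 799 ± 111 in heart and 558 ± 12.0 in skeletal muscle (SD, n = 6 each), a log2 fold change of 0.51 (adjusted p = 8.22e-05, limma), and the gene passed within each diet as well, at 0.49 in high-iron mice (adjusted p = 0.00476) and 0.52 in controls (adjusted p = 0.00274, both limma). S100a1 and S100a13 start 104 bases apart on opposite strands, around the stretch printed above.

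S100a4 and S100a6 were lower in heart. S100a4, a binding partner of non-muscle myosin known from fibroblasts and migrating cells, had 369, 386 and 377 in high-iron and 334, 401 and 382 in control heart, against 482, 656 and 641 in high-iron and 677, 484 and 557 in control skeletal muscle. Its tissues did not overlap, and skeletal muscle arrays spread more widely than hearts. The log2 fold change was -0.62 (adjusted p = 4.13e-05, limma), with -0.64 in high-iron mice (adjusted p = 0.00172) and -0.61 in controls (adjusted p = 0.00255, both limma). S100a6, or calcyclin, had 5251, 3502 and 4218 in high-iron and 3768, 5182 and 3594 in control heart, against 5234, 7095 and 4886 in high-iron and 6245, 5770.0 and 5884 in control skeletal muscle. The highest hearts were the pair of arrays that stood apart, and high-iron heart replicate 1 lay above 2 skeletal muscles of the same diet. The log2 fold change was -0.47 with both diets (adjusted p = 0.00639), -0.41 in high-iron mice (adjusted p = 0.156) and -0.53 in controls (adjusted p = 0.0425, all limma). Without the pair of heart arrays the value in high-iron mice was -0.56 (adjusted p = 6.02e-04, limma), while the call in controls was lost with normexp correction (adjusted p = 0.0954) and in 7 of 12 cases of a single array left out (adjusted p 0.0549 to 0.187, both limma). S100a5, which lies between these genes, had -0.14 without passing (adjusted p = 0.130, limma).

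S100a10 and S100a11, neighbours as well, were higher in heart by small amounts. S100a11, a partner of annexin A1, had 701, 584 and 493 in high-iron and 548, 587 and 529.7 in control heart, against 475, 488 and 491 in high-iron and 488, 460.2 and 494 in control skeletal muscle. The tissues did not overlap within a diet, and over both diets only high-iron heart replicate 3 fell below a skeletal muscle array. Its log2 fold change was 0.24 (adjusted p = 0.0261) and that of S100a10 0.27 (adjusted p = 0.0327, both limma). Neither passed within 1 diet: S100a11 had 0.28 in high-iron mice and 0.21 in controls, and S100a10 0.23 and 0.30 (adjusted p 0.112 to 0.328, limma). Both calls were lost without the pair of heart arrays, with 0.19 for S100a10 (adjusted p = 0.0518) and 0.16 for S100a11 (adjusted p = 0.0802, both limma), and in several other alternatives. Within 1 diet calls were gained instead: S100a10 passed in controls without the pair (0.29, adjusted p = 0.0360) and without high-iron heart replicate 1 (0.30, adjusted p = 0.0239), and S100a11 passed in high-iron mice without high-iron heart replicate 3 (0.40, adjusted p = 0.00611, all limma).

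**Figure D4:**
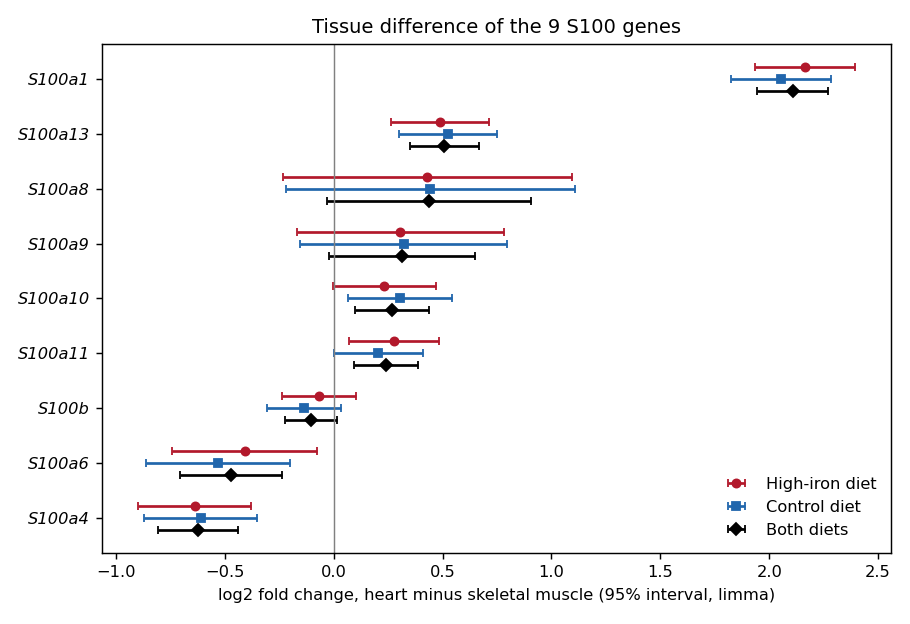
log2 fold change (heart minus skeletal muscle, horizontal axis) of each of the 9 genes within the high-iron diet, within the control diet and over both, with the 95% interval from limma. S100a1 lies at 2.05 to 2.16, S100a13 at 0.49 to 0.52, S100a6 at -0.53 to -0.41 and S100a4 at -0.64 to -0.61.

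S100a8, S100a9 and S100b did not pass between the tissues. S100a8 had a log2 fold change of 0.44 (95% interval -0.03 to 0.91, adjusted p = 0.303), S100a9 of 0.31 (-0.02 to 0.65, adjusted p = 0.300) and S100b of -0.10 (-0.22 to 0.02, adjusted p = 0.367, all limma). For S100a8 the order of the group means was high-iron heart, high-iron skeletal muscle, control heart and control skeletal muscle, the same as for S100a9, and the arrays of each group overlapped with those of the next group in this order. Without the pair of heart arrays S100a8 passed with 0.57 (adjusted p = 0.0395, limma). S100b had 282, 234 and 235.0 in high-iron and 249, 242 and 224 in control heart, against 251, 259 and 274 in high-iron and 268, 252.5 and 266 in control skeletal muscle. All 12 values lay near the median of all probes, with 18.4% to 67.9% of probes below them, so its level could not be separated from that of most probes of the array. Of 8 Schwann cell genes 5 were measured. Of these 2 were lower in heart and 0 higher, against 5.5% and 7.3% of all probes, and 3 did not pass. The 2 were Mbp, the myelin basic protein gene, with -1.07 (adjusted p = 2.61e-08) and Ncmap, of non-compact myelin, with -0.19 (adjusted p = 0.0411, both limma).

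**Figure D5:**
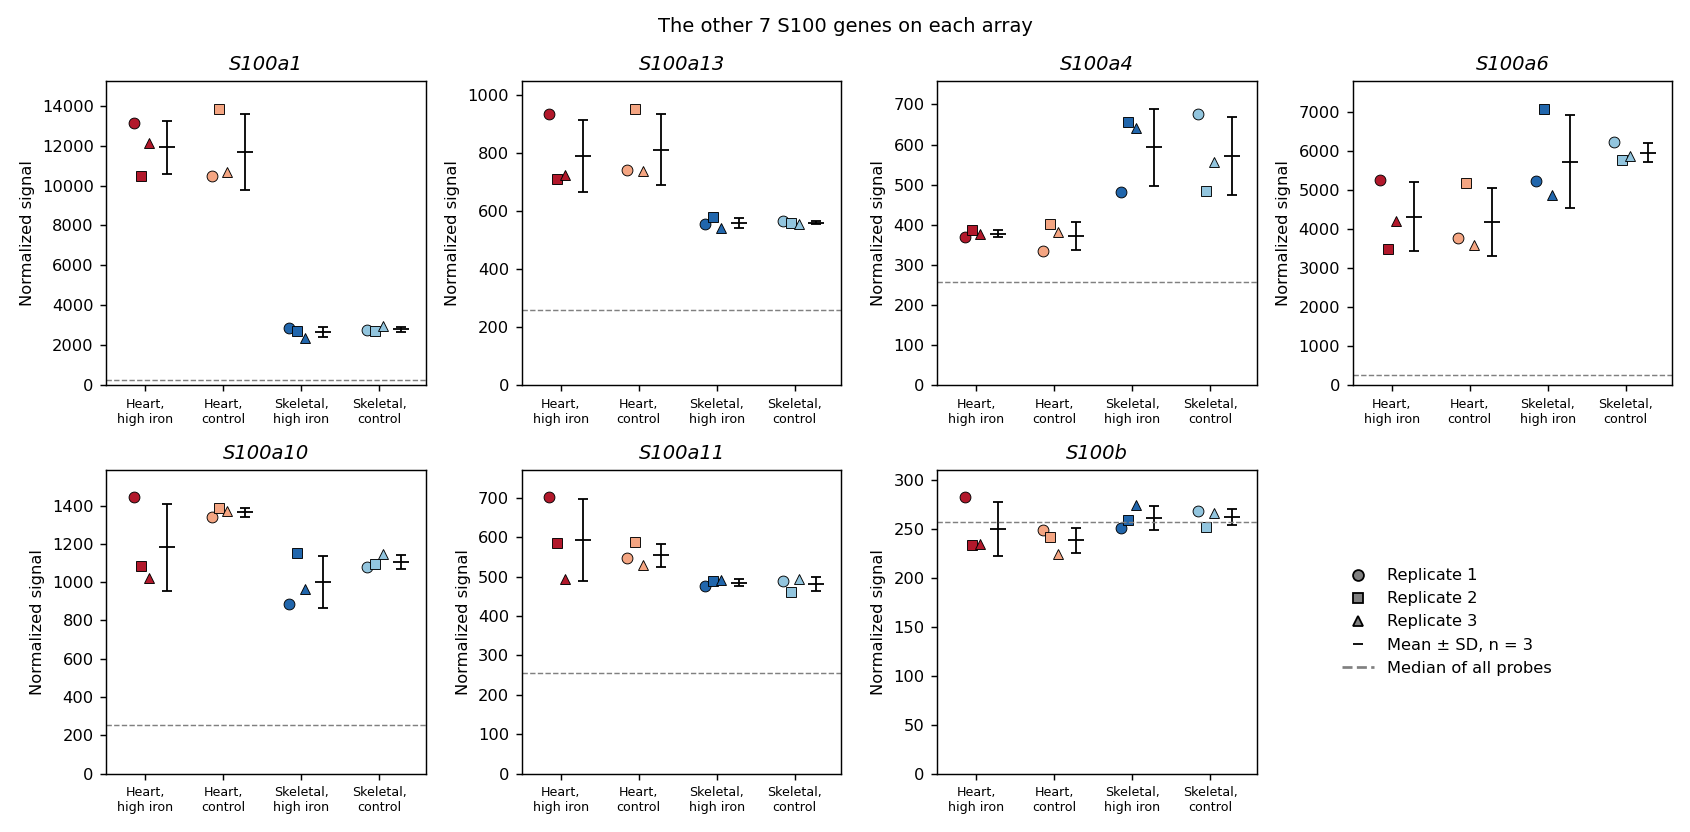
Normalized signal (vertical axes, linear, 1 panel per gene) of the other 7 genes on each array by group, with the mean and SD of 3 arrays and the median of all probes as a dashed line. S100a1 and S100a13 are higher in all hearts, S100a4 in all skeletal muscles, S100b lies near the median of all probes, and high-iron heart replicate 1 and control heart replicate 2 are the highest hearts for S100a1, S100a13 and S100a6.

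The pair of heart arrays that stood apart had the highest heart signals for 5 members. Both lay above the other 4 hearts for S100a1, S100a6, S100a10, S100a11 and S100a13, as they did for 16.5% of all probes, and they lay below them for 0 members, against 12.2% of all probes. For S100a13 they had 933 on high-iron replicate 1 and 952 on control replicate 2, against 709.5 to 740.2 on the other 4 hearts. For S100a8, S100a9, S100a4 and S100b the pair did not lie on 1 side of the other 4 hearts. One of the pair comes from each diet. What sets the pair apart was not tested.

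Partners and receptors of the S100 proteins were compared between the tissues from lists. Of 19 partner genes, all measured, 9 were higher and 2 lower in heart, against 7.3% and 5.5% of all probes, and 25.2% in either direction among the probes brighter than the median. They included both sides of the muscle calcium machinery that S100A1 binds. Atp2a2, the cardiac calcium pump, was higher in heart by 6.33 on the log2 scale. Ryr2, the cardiac ryanodine receptor, had 2221 to 11933 in heart, lowest on high-iron replicate 1, and 239 to 266 in skeletal muscle. Ryr1 and Atp2a1, the skeletal muscle forms, had 225 to 289 and 215 to 269 in heart, against 12954 to 14893 and 56804 to 59846 in skeletal muscle. No fold is given for these 3 genes, because the dimmer tissue lay near the median of all probes. Fgf1, the growth factor released with S100A13, was higher in heart by 1.05 (adjusted p = 6.18e-09), Anxa2, the annexin that S100A10 binds, by 0.44 (adjusted p = 0.00156), and Myh9, the non-muscle myosin that S100A4 binds, by 0.54 (adjusted p = 4.52e-06, all limma). S100a4 and Myh9 thus differed between the tissues in opposite directions. With median scaling Anxa2 and Myh9 were no longer called (adjusted p = 0.237 and 0.0573, limma). Anxa1, partner of S100A11, had -0.10 without passing (adjusted p = 0.400, limma). By diet 0 of the 19 passed in either tissue. Of 7 genes listed for receptors and their signalling, 5 were higher in heart and 0 lower, read against the same shares of all probes. Bsg, or basigin, was higher by 0.92, Cd36 by 0.55, Ly96 by 0.47, Myd88, a signalling adaptor, by 0.28 and Cd14 by 0.27. Of 11 macrophage genes 7 were higher in heart and 1 lower, against 7.3% and 5.5% of all probes. The higher ones included Lyz2, a lysozyme, with 1.09 and C1qa, of complement, with 0.66. The lower one was Lyz1, also a lysozyme, with -0.34 (adjusted p = 0.0044, limma). The part of macrophages in these differences was not tested.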

How the data were processed

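Total RNA of heart and skeletal muscle was hybridized by the authors to Illumina Sentrix Mouse-6 BeadChips, 1 array per sample (12 arrays on 2 chips, the chip of each array not being given in the labels, so it could not be used as a batch). The signal intensity of every probe was deposited before normalization, array by array, and a deposited table holds the intensity values that the authors quantile normalized, which served as an alternative. Array medians before normalization were 183 to 337. No background subtraction, detection p-value or offset was used, so low signals include background. Genome build and annotation of the probes are not given in the sources used here.

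Signals were quantile normalized over the 12 arrays and taken to log2 in R 4.3.3. limma 3.58.1 (lmFit and eBayes, two-sided) compared the diets within each tissue, and the tissues and the change of the diet difference over 4 group means, with p-values adjusted by the Benjamini-Hochberg method across the 46133 probes (threshold 0.05). Standard errors and intervals are those of limma, with each probe's variance drawn toward that of all probes. Probes were named from the platform annotation (29542 with 1 symbol, 11 with several, 16580 with none). A listed gene is represented by its brightest probe. No arrays held identical values. The number of arrays limits the precision, and the labels call the replicates biological.

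The members, the gene lists and the rules were chosen with earlier results of these data known. Named genes are the 9 members, up to 3 genes of smallest p from each pathway list and up to 4 from each cell type list in each comparison, up to 3 of highest signal from each cell type list, and the 10 genes most like S100a8 and S100a9. Camp, Mpo, Spi1, Myd88, Fgf1, Gp5 and Anxa1 were named for their roles, after their values were seen. The motifs were also chosen after the promoters were seen. The scripts were tested on simulated data. Heart and skeletal muscle arrays of the same diet and number were taken as 1 mouse in the alternative with a mouse block, where the correlations of their deviations were 0.0262 to 0.0998.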

Additional observations from a re-analysis of the deposited data

How the results depend on the processing

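Of 1315 recomputed values, 1223 kept their direction and their side of the threshold or moved by less than the spread between arrays. In every alternative run the counts of members called by diet stayed at 0 of 7 in both tissues. None of these 7 passed the test of the tissues' diet difference in any alternative. The tissue count was 4 to 6 against 6. With normexp background correction the log2 fold changes by diet, given without a test, became 1.82 for S100a8 and 1.44 for S100a9 in skeletal muscle. In heart S100a9 became 1.33, and S100a8 reached at most 1.69 in any alternative run. Without single arrays they were 0.95 to 1.51 for S100a8 and 0.80 to 1.15 for S100a9 in skeletal muscle, and 0.92 to 1.61 and 0.68 to 1.20 in heart. Diet values of 6 of the other 7 members changed sign when 1 array was left out, while those of S100a10 stayed below 0. In skeletal muscle they ran from -0.13 to 0.0012 for S100a1, -0.064 to 0.19 for S100a4, -0.24 to 0.031 for S100a6, -0.018 to 0.033 for S100a11, -0.031 to 0.015 for S100a13 and -0.041 to 0.024 for S100b, and in heart from -0.038 to 0.17 for S100a1, -0.053 to 0.080 for S100a4, -0.10 to 0.21 for S100a6, -0.046 to 0.21 for S100a11, -0.17 to 0.082 for S100a13 and -0.023 to 0.11 for S100b. The heart minus skeletal muscle diet difference ran from -0.34 to 0.42 for S100a8 and -0.26 to 0.26 for S100a9, and was 0.015 for S100a9 with median scaling. Without the pair of heart arrays the heart diet values of S100a11 and S100b were -0.0046 and -0.012. Between the tissues, S100a10 and S100a11 were lost with median scaling (0.13 and 0.20, adjusted p = 0.702 and 0.137, limma) and with normexp correction (0.30 and 0.32, adjusted p = 0.103 and 0.0687, limma), and when single arrays were left out, in 7 of 12 cases for S100a10 and 4 of 12 for S100a11. In controls alone S100a4 was lost with median scaling (adjusted p = 0.0611) and S100a6 with normexp correction (adjusted p = 0.0954, both limma) and in 7 of 12 cases of a single array left out. S100a1, S100a4, S100a6 and S100a13 kept their tissue call over both diets in every alternative run. Alternatives under which Fos, Jun, Anxa2 and Myh9 lost their calls stand beside those results. The cause of these changes was not tested. Over all probes, 46 were called by diet in skeletal muscle, against 0 with median scaling, 0 with normexp correction, 2 with 1 fit over 4 groups and 77 with the replicate block, and 0 in heart, against 28 without the pair of heart arrays, 5 with 1 fit over 4 groups and 2 with a trended robust prior. With the replicate number as replicate block for the diets and the mouse for the tissues (consensus correlation 0.0717) the tissue count was 6 and the diet counts 0, and no call of a member changed. Same-numbered arrays of the diets correlated at -0.54 to 0.49 in heart and 0.0217 to 0.0989 in skeletal muscle. The heart values include the pair of arrays that stood apart, so they cannot show whether the numbers pair the diets. The main fits did not take the numbers to pair the diets. Array medians before normalization went with the number in all 4 groups (281 to 337 on replicate 1, 251 to 283 on replicate 2, 183 to 193 on replicate 3), and what the number stands for beyond a mouse is not given. Without detection calls, signals near 257, such as those of S100b and of S100a8 in control skeletal muscle, cannot be separated from background.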
